A study of Homo sapiens with 6 samples.

Results

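A set of 9 genes that make or move acetyl-CoA was followed in KM12 cells, out of 27134 genes with a value. They are ACSS1, ACSS2, ACSS3, ACLY, SLC25A1, PDHA1, PDHB, DLAT and DLD, each taken by matching its symbol to its Ensembl identifier. The set was built around ACSS1 because ACSS1 was already known to be among the transcripts that were most raised by CDO1 in these libraries. Levels and fold changes of the 9 genes between the groups are therefore a description, given with their errors. Where a limma threshold is mentioned for them, it says where they lie among all genes and supports nothing, since the set was selected on these values. KM12 is a long-established line from a human colorectal cancer. RNA was sequenced from 3 libraries of KM12 cells overexpressing CDO1 and from 3 libraries of mock control cells, all at passages 10 to 15. CDO1 encodes cysteine dioxygenase, which oxidises cysteine to cysteine sulfinate. The labels give neither the vector nor a clone, and leave it unsaid whether the libraries within a group were grown as separate cultures. Each SD therefore covers only the spread of these libraries, which may be technical. The SE and interval of a fitted fold change come from limma, which also draws on the spread of other genes.

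Acetyl-CoA is the carrier of acetyl groups for the citrate cycle, for the synthesis of fatty acids and sterols, and for protein acetylation. In mitochondria it is made from pyruvate by the pyruvate dehydrogenase complex, from fatty acids, and from free acetate by ACSS1. It cannot cross the inner membrane itself, so it leaves as citrate through the carrier SLC25A1, and ACLY splits the citrate again in the cytosol and nucleus. ACSS2 makes acetyl-CoA from acetate in the cytosol and nucleus, and colon epithelium is exposed to acetate from bacterial fermentation.

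The start regions of ACSS1 and ACSS2 are shown because these genes catalyse the same reaction in different compartments and stood far apart in fold change. The sequences are from RefSeq (GRCh38.p14), run 5′ to 3′ on the strand of the gene from 250 bases before to 50 bases after a start, and carry GC boxes in capitals. RefSeq gives each gene more than 1 start, and the counts do not tell which start was used. ACSS1 lies on the minus strand of chromosome 20, with an outer start region at chr20:25058090-25058389 and an inner one at chr20:25032657-25032956.
ACSS1 outer start: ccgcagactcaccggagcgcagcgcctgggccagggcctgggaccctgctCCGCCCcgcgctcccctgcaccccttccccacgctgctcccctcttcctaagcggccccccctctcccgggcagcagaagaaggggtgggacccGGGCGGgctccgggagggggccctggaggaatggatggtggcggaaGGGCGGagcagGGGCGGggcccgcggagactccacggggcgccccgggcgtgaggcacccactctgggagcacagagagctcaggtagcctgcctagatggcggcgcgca
ACSS1 inner start: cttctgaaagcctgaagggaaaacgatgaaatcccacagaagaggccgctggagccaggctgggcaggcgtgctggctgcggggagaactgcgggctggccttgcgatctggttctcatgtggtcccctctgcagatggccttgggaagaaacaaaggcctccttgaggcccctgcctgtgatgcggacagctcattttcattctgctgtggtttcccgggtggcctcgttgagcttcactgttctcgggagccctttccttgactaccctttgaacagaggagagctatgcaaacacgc
ACSS2 lies on the plus strand of the same chromosome, with start regions at chr20:34874739-34875038 and chr20:34876362-34876661.
ACSS2 first start: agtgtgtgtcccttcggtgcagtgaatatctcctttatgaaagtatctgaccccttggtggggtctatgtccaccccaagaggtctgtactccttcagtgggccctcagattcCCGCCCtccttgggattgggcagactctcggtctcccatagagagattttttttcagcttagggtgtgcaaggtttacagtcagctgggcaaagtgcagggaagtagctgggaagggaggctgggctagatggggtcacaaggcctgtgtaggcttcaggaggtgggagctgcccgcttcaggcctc
ACSS2 second start: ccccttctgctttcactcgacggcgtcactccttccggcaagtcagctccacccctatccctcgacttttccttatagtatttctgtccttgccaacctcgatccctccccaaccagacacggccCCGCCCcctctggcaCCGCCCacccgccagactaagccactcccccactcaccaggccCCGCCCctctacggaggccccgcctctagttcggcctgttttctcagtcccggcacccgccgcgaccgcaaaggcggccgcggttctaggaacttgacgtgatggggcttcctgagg
The GC box (GGGCGG or its reverse complement) had 4 matches at the outer ACSS1 start, where 75% of the bases were G or C, and none at the inner start. It had 1 and 3 matches at the first and second ACSS2 starts. Of 35114 start regions of this length in RefSeq, 45.0% held a GC box. Of the 12 start regions of the 8 supply genes that have one, 8 held a GC box, and the regions of DLAT and DLD held none. The sterol regulatory element was searched as TCACNCCAC, the estrogen-related receptor element as TCAAGGTCA, the cyclic AMP response element as TGACGTCA and the nuclear respiratory factor 1 element by its consensus of 10 letters, on both strands. None of these was found in the 12 regions of the 8 genes, against 1.13%, 0.353%, 1.85% and 5.78% of all regions. The E-box CACGTG, in 7.26% of all regions, was found at PDHB, and the antioxidant response core TGACNNNGC, in 13.3%, at SLC25A1. There, 1 GC box began on the last base of the antioxidant match. A match or its lack describes the letters of these windows and nothing about binding.

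Reads assigned to genes numbered 18544419 to 22198173 in the CDO1 libraries and 17516640 to 22159756 in the mock libraries. CDO1 itself stood at 2484, 2336 and 2333 normalised counts in the CDO1 libraries, against 68.1, 0 and 0 in mock replicates 1, 2 and 3. A normalised count is the number of reads of a gene divided by the size factor of its library. The 8 markers of colon epithelium (such as EPCAM, CDX2 and VIL1) all averaged at least 100 normalised counts. Their sum was 167854 to 179345 in the CDO1 libraries and 117567 to 122199 in mock. KRT8 made up most of it, with means of 122713 with CDO1 and 86833 in mock, and each of the 8 was higher with CDO1. Of 6 fibroblast markers 2 have a value here, with a sum of 130 to 151 in CDO1 and 204 to 293 in mock. COL1A1 averaged 103 with CDO1 and 225 in mock, while PDGFRB averaged 39.5 and 35.2. The sums were 6.43 to 12.04 and 1.95 to 17.03 for the 2 leukocyte and blood markers that have a value, of 6, and 51.3 to 77.7 and 27.3 to 82.4 for the 4 endothelial ones. The part of the epithelial shift in the values below was not tested.

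ACSS1, the mitochondrial acetyl-CoA synthetase (ENSG00000154930, GRCh38 chromosome 20, 25006230 to 25058980), stood at 381, 396 and 404 normalised counts in the CDO1 libraries, against 146, 197 and 148 in the mock libraries. Every CDO1 library lay above every mock library, and mock replicate 2 lay above the other mock libraries. The counts rest on 386, 362 and 440 reads in CDO1 and 163, 202 and 131 reads in mock. The mean was 394 ± 11.96 with CDO1 and 164 ± 28.8 in mock (SD, n = 3 each), a ratio of 2.40. On the log2 scale of the normalised count plus 1, the fitted fold change was 1.27 ± 0.11 (SE), the 275th largest of 21775 genes fitted. Without mock replicate 2 it was 1.41, and in the authors' deposited table, where fold changes are moderated toward 0, it was 1.15. For CDO1 itself the deposited value was 0.09, against 9.18 in the fit, and the cause of this distance was not tested. In RNA from many cells, more cells with a transcript and more transcript per cell cannot be told apart.

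ACSS2, the synthetase of the cytosol and nucleus (ENSG00000131069, chromosome 20, 34872146 to 34927962), had 1469, 1423 and 1419 normalised counts with CDO1, against 1355, 1295 and 1333 in mock. The groups did not overlap, but the distance was small, with means of 1437 ± 27.9 and 1328 ± 30.2 (SD, n = 3 each) and a ratio of 1.082. Its fitted log2 fold change was 0.11, with a 95% interval of -0.0013 to 0.23. For ACSS1, which was chosen for its fold change, the interval was 1.05 to 1.5. ACSS3, a mitochondrial synthetase that prefers propionate (ENSG00000111058, chromosome 12, 80936414 to 81261205), was barely detected. It had 1, 3 and 1 reads in the CDO1 libraries and 0 reads in each mock library, and a library at 0 may still hide up to 3 reads by counting error alone. It fell below the minimum mean of 1 normalised count and was not fitted, so 8 of the 9 genes have a fold change. It shares 285 exonic bases with LIN7A and 1686 with PPFIA2 on the other strand, and the strand setting of the counting is not given in the sources used here.

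**Figure D1:**
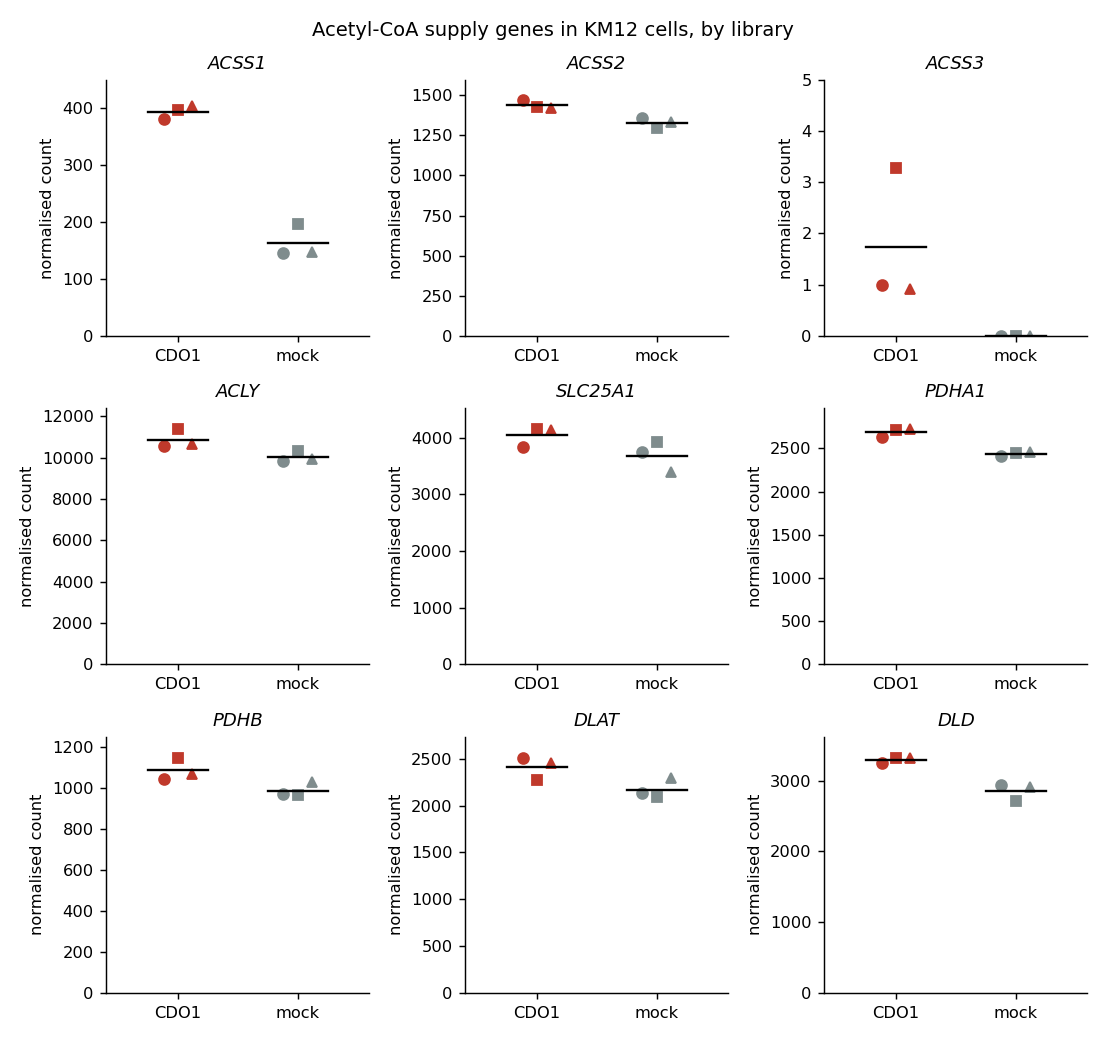
Normalised counts of the 9 acetyl-CoA supply genes, 1 panel per gene with its own axis from 0; points are libraries (CDO1 in red at left, mock in grey at right, shapes for replicates 1 to 3) and bars are group means. ACSS1 is at 381 to 404 with CDO1 and at 146 to 197 in mock, while the groups lie close together for the other genes, and ACSS3 has at most 3 reads in a library.

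The transcripts of the citrate route were abundant, and their groups lay close together. ACLY, ATP citrate lyase (ENSG00000131473, chromosome 17, 41866908 to 41930542), had 10579.6, 11399 and 10651 normalised counts with CDO1, against 9845, 10303 and 9942 in mock. Here too each CDO1 library lay above each mock library, with means of 10876.5 ± 454 and 10029.7 ± 242 (SD, n = 3 each) and a ratio of 1.084. SLC25A1, the citrate carrier of the inner mitochondrial membrane (ENSG00000100075, chromosome 22, 19175575 to 19178830), had 3841, 4148 and 4134 with CDO1, against 3755, 3917 and 3387 in mock. Its groups overlapped, since CDO1 replicate 1 lay below mock replicate 2. The SLC25A1 means were 4041 ± 173 and 3686 ± 271 (SD, n = 3 each), a ratio of 1.096. SLC25A1 has the highest GC content of the set, 67.8% over its transcripts. Its fitted log2 fold change was 0.13 with the deposited scaling alone and 0.32 once the trend of each library with GC content was removed. Without mock replicate 3 it was 0.07. ACLY stood at 0.12 with the deposited scaling alone and 0.10 with the GC trend removed. Both genes were past the limma threshold with the GC trend removed but not with the deposited scaling alone. SLC25A1 also has processed pseudogenes, and the 2 with a value had no more than 4.38 normalised counts in any library.

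The pyruvate dehydrogenase complex decarboxylates pyruvate and passes the acetyl group to coenzyme A. PDHA1 and PDHB encode the alpha and beta subunits of its first enzyme, DLAT the acetyltransferase core and DLD the dihydrolipoamide dehydrogenase that reoxidises the core. PDHA1 (ENSG00000131828, chromosome X, 19343893 to 19361705) had 2635, 2711 and 2729 normalised counts with CDO1, against 2406, 2441 and 2453 in mock. PDHB (ENSG00000168291, chromosome 3, 58427630 to 58433857) had 1047, 1151 and 1069 with CDO1, against 972, 967 and 1029 in mock. In both genes the CDO1 libraries lay above all mock libraries, by ratios of the means of 1.106 and 1.101. The fitted log2 fold changes were 0.15 ± 0.05 for PDHA1 and 0.14 ± 0.06 for PDHB (SE).

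DLAT (ENSG00000150768, chromosome 11, 112024814 to 112064390) had 2512, 2269.5 and 2455 normalised counts with CDO1, against 2136, 2086 and 2289.7 in mock. CDO1 replicate 2 and mock replicate 3 crossed, and the ratio of the means was 1.11. DLD (ENSG00000091140, chromosome 7, 107890970 to 107931730) had 3255, 3323 and 3314 with CDO1, against 2937, 2715 and 2904 in mock. Its groups were well apart, with means of 3297 ± 36.7 and 2852 ± 119.6 (SD, n = 3 each) and a ratio of 1.16, the largest of the set after ACSS1 among the genes fitted. DLD shares 70 of its 5299 exonic bases with LAMB1, a laminin chain on the other strand that stood at 3003 ± 65.0 with CDO1 and 2289 ± 26.7 in mock (SD, n = 3 each). PDHA1 shares 956 with MAP3K15, at 16.6 ± 2.43 and 32.6 ± 10.6, and DLAT 212 with PIH1D2, at 9.89 ± 2.65 and 19.3 ± 6.49. PDHB shares 360 exonic bases with AC135507.1 and ACLY 156 with AC125257.2, antisense genes on the other strand that have no value here. The part of reads from these partners was not tested.

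All 8 genes fitted had a positive log2 fold change, with a median of 0.14, beside -0.00 over all 21775 genes and 0.02 over the 10941 genes that averaged 100 normalised counts or more. Apart from ACSS1 they ran from 0.11 to 0.21, or 8.25% to 15.6% higher in mean normalised count. At an adjusted p of 0.05 in limma over all genes, the genes past the threshold were ACSS1, DLD and PDHA1, 3 of 8, where 24.0% of all genes were called in either direction and 11.3% as higher with CDO1. Among genes averaging 100 or more, 19.6% were called higher. The groups did not overlap in 6 of the 8, beside 18.3% of all genes with CDO1 wholly above mock and 27.5% of those with a mean of at least 100. Nothing is read from these counts, since the contrast was used to choose the genes. PDHA1 was past the threshold in 10 of 17 alternative fits, and its log2 fold change was 0.12 with equal library totals and 0.10 with the GC trend removed, not past the threshold in either. With the GC trend removed, PDHB was at 0.08 and DLAT at 0.09.

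**Figure D2:**
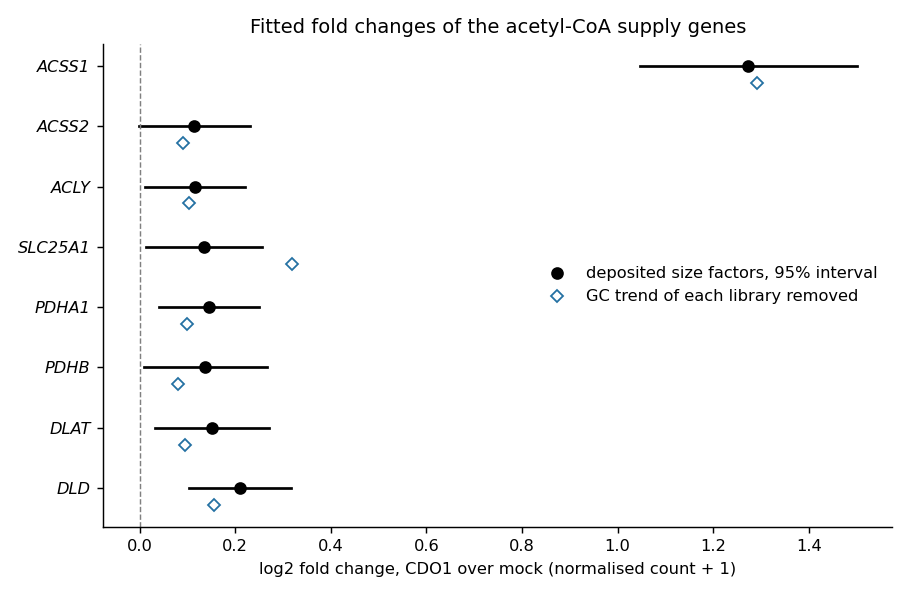
Fitted log2 fold change (CDO1 over mock, normalised count plus 1) of the 8 supply genes fitted, with a black point and a 95% interval for the deposited scaling and an open blue diamond for the value with each library's GC trend removed. ACSS1 lies at 1.27 and the others between 0.11 and 0.21; removal of the GC trend moves SLC25A1 to 0.32 and the pyruvate dehydrogenase genes toward 0.

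Levels of different genes were compared per kilobase of their annotated exons joined together. ACLY was highest, at 2085 ± 87.0 normalised counts per kilobase with CDO1 and 1923 ± 46.3 in mock, followed by SLC25A1 at 1928 ± 82.8 and 1759 ± 129.5 (SD, n = 3 each), and in both groups every ACLY library lay above every SLC25A1 library. DLD, PDHA1 and DLAT followed at 622 ± 6.93, 599 ± 11.1 and 499 ± 26.2 with CDO1 and 538 ± 22.6, 542 ± 5.38 and 449 ± 21.98 in mock, and DLD and PDHA1 overlapped in mock but not with CDO1. ACSS2 was at 267 ± 5.18 and 247 ± 5.61, above PDHB at 231 ± 11.6 and 209.8 ± 7.37, with no overlap of the libraries. ACSS1 was in place 8 in both groups, at 45.3 ± 1.38 with CDO1 and 18.8 ± 3.32 in mock, above ACSS3 only. With the median length of protein-coding transcripts in place of joined exons, ACSS1 and ACSS3 kept these places, ACSS2 moved up to place 4 and PDHA1 to place 1.

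**Figure D3:**
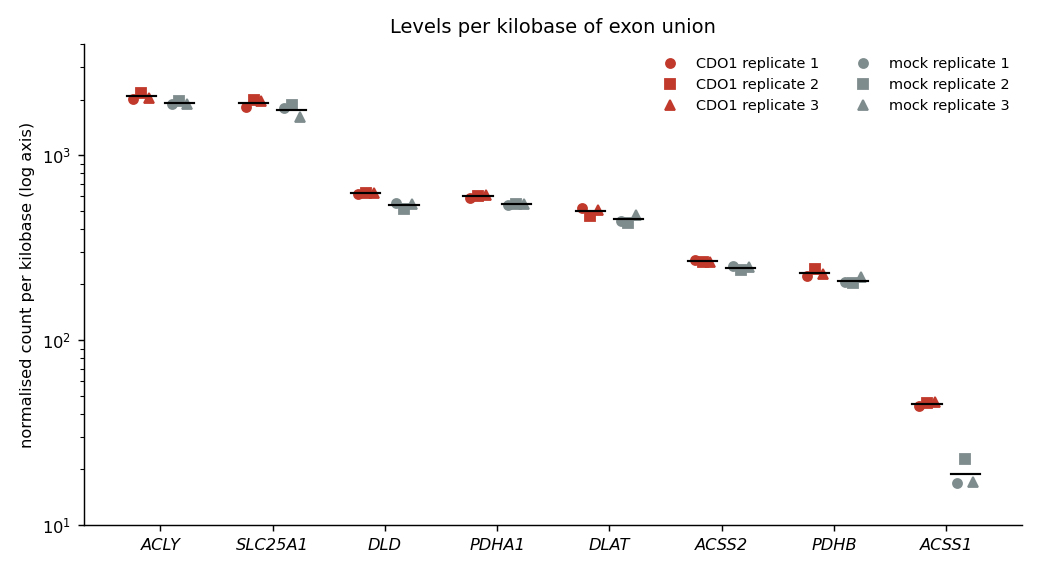
Normalised count per kilobase of joined exons on a log axis for 8 supply genes, in order of their CDO1 mean; points are libraries (CDO1 in red at left, mock in grey at right of each gene) and bars are means, and ACSS3 is left out because its mock libraries are at 0. ACLY and SLC25A1 stand highest and ACSS1 lowest in both groups, at 45.3 with CDO1 and 18.8 in mock.

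Ratios inside a library do not depend on its scaling. Those below use joined exons, and their size depends on that choice of length, though their comparison between groups does not. With the median length of protein-coding transcripts, ACLY, ACSS2 and ACSS1 stood at 2954, 2189 and 132 per kilobase with CDO1, which gives other ratios. ACSS2 exceeded ACSS1 per kilobase by 6.23, 5.80 and 5.67 in the CDO1 libraries, against 15.0, 10.6 and 14.5 in the mock libraries, so the groups were apart. ACLY over ACSS2 was 7.82 ± 0.421 with CDO1 and 7.80 ± 0.367 in mock (SD, n = 3 each), and these overlapped. PDHA1 over PDHB was 2.60 ± 0.110 and 2.58 ± 0.0763, and DLD over DLAT was 1.25 ± 0.0782 and 1.199 ± 0.0499, again with overlap. The relative levels of ACLY and ACSS2 and of the subunits of the first pyruvate dehydrogenase enzyme thus differed between groups by less than the spread between libraries.

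The genes whose log2 values followed ACSS1 most closely over the 6 libraries were sought among 10548 protein-coding genes, other than ACSS1 and CDO1 themselves, that averaged 100 or more. The 5 closest were MGLL (monoacylglycerol lipase), COL4A2 (a basement membrane collagen chain), OPTN (the autophagy receptor optineurin), TMCO3 and RASSF10, with a Pearson's r of 0.9967 to 0.9996. MGLL had 928, 951 and 967 normalised counts with CDO1, against 576, 665 and 587 in mock. Its highest mock library was replicate 2, as for ACSS1, but selection on r favours genes with the same order of libraries. Such values of r follow largely from the distance between the groups, and 479 genes reached an r of 0.95. Among the other supply genes r was highest for PDHA1, at 0.964, and lowest for DLAT, at 0.700. The nearest protein-coding genes beside ACSS1 on chromosome 20 among those fitted, chosen after its values were seen, were not past the threshold. Genes that were not fitted were passed over. Toward lower coordinates these were CST7 (log2 fold change 0.12) and APMAP (0.09), and toward higher coordinates ENTPD6 (0.02) and PYGB (-0.02), with an adjusted p in limma of 0.187 to 0.860. Without CDO1 replicate 2, CST7 was past it, at a log2 fold change of 0.23.

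Of 96 further genes around acetyl-CoA in 8 lists, 89 were fitted, and 32 rose, 9 fell and 48 did not pass in limma at an adjusted p of 0.05. That is 46.1%, beside 24.0% of all genes, of which 11.3% were higher and 12.7% lower. Among the 80 with a mean of at least 100 it is 46.2%, beside 36.3% of all genes at that level, of which 19.6% were higher and 16.7% lower. Their median log2 fold change was 0.09. By list, the share past the threshold ran from 23.1% for transcription regulators to 80% for pyruvate entry and control. It was 28.6% for acetate transport and release, 33.3% for users of acetyl-CoA and 40% for citrate formation and handling. Shares of 23.1% to 40% lie near the 24.0% or 36.3% of all genes, and nothing is read from those counts.

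Genes that feed and control pyruvate dehydrogenase moved in both directions. Of 10, 5 rose, 3 fell and 2 did not pass, with a median log2 fold change of 0.10. PDP1, the catalytic subunit of a phosphatase that activates the complex, had 5643, 5499 and 5880 normalised counts with CDO1, against 10946, 10493 and 11216 in mock. It fell 1.92-fold (log2 fold change -0.94 ± 0.05, limma adjusted p = 3.47e-11), with no overlap. PDPR, a regulatory subunit of that phosphatase that has near-identical copies and so an uncertain count, fell by 0.32 on the log2 scale. The kinases that inactivate the complex went apart. PDK2 fell 1.71-fold, with 193, 195 and 190 counts with CDO1, against 312, 319 and 360 in mock, and PDK1 rose 1.37-fold, to 569 ± 35.1 with CDO1 against 416 ± 21.9 in mock (SD, n = 3 each). PDK3 and PDK4 did not pass, at log2 fold changes of -0.03 and -0.14. Among the others, named after their values were seen, the subunits of the mitochondrial pyruvate carrier both rose, MPC1 1.24-fold and MPC2 1.28-fold. The phosphatase PDP2 rose 1.21-fold, and PDHX, the protein that anchors DLD to the complex, rose 1.18-fold. PDHX lost its call without CDO1 replicate 1 or 3 or mock replicate 2, with log2 fold changes of 0.16 to 0.29 over the 17 alternative fits, and PDP2 without CDO1 replicate 1, so 3 genes of the list rose without that library.

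DLD also serves the oxoglutarate, branched-chain keto acid and glycine cleavage systems. The list around these systems has 12 genes, among them the regulators PPM1K and BCKDK and the related enzyme DHTKD1. Of the 12, 4 rose, 2 fell and 6 did not pass, with a median log2 fold change of 0.13. OGDH, the first enzyme of the oxoglutarate complex, rose 1.26-fold, to 4927 ± 251 with CDO1 against 3923 ± 149 in mock, while its relative OGDHL fell 2.16-fold, to 199.96 ± 18.6 against 433 ± 31.2 (SD, n = 3 each). BCKDHB, a subunit of the branched-chain complex, rose 1.42-fold and PPM1K, the phosphatase that activates that complex, 1.57-fold. BCKDHA stood at no more than 4.93 normalised counts in any library. In GENCODE its locus lies largely inside another annotated gene, so its count is uncertain.

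Acetate enters cells through monocarboxylate carriers, which also move lactate and pyruvate. Of 9 genes for transport, release and deacetylation, 7 were fitted, and 1 rose, 1 fell and 5 did not pass, with a median log2 fold change of 0.06. Without mock replicate 3, 3 fell, with BSG and SLC16A3 added. SLC16A7, the carrier MCT2, had 33.5, 32.8 and 22.04 normalised counts with CDO1, against 103, 78.0 and 95.03 in mock, and fell 3.12-fold (log2 fold change -1.62 ± 0.20, limma adjusted p = 3.21e-06). The far more abundant SLC16A1, MCT1, rose 1.2-fold, to 9688 ± 449 with CDO1 against 8074 ± 325 in mock (SD, n = 3 each). SIRT3, a mitochondrial deacetylase known to activate acetyl-CoA synthetase there, had a log2 fold change of 0.12 (limma adjusted p = 0.284).

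Of 14 other acyl-CoA synthetases 11 were fitted, of which 5 rose, 2 fell and 4 did not pass, with a median log2 fold change of 0.24. ACSF2, a mitochondrial medium-chain synthetase, rose 1.26-fold, ACSL1 of the long-chain family 1.25-fold and AACS, the acetoacetyl-CoA synthetase, 1.18-fold, while ACSF3, which activates malonate in mitochondria, fell 1.24-fold. Without CDO1 replicate 1 or 2 or mock replicate 1 or 3, 1 gene of this list fell. In citrate formation and handling 6 of 15 rose, none fell and 9 did not pass, with a median log2 fold change of 0.08. The malic enzymes ME1 and ME2 rose 1.54-fold and 1.34-fold and the isocitrate dehydrogenases IDH1 and IDH3B 1.47-fold and 1.14-fold. IDH3B was not past the threshold without CDO1 replicate 3 or mock replicate 1, and 3 genes of the list rose without mock replicate 1. Citrate synthase CS, outside the rule for naming, rose 1.11-fold and was not past the threshold in 6 of 17 alternative fits.

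Among 9 other mitochondrial sources of acetyl-CoA 5 rose, none fell and 4 did not pass, with a median log2 fold change of 0.21. These were led by the thiolase ACAA2, 2.08-fold higher, with HADHA and HADHB, the subunits of the trifunctional protein, 1.21-fold and 1.18-fold higher and the thiolase ACAT1 1.19-fold higher. HADHB was not past the threshold without CDO1 replicate 3, when 3 of the 9 rose. Of 12 users of cytosolic and nuclear acetyl-CoA 4 rose, none fell and 8 did not pass, with a median of 0.06. The acetyltransferase KAT2B rose 1.51-fold, the sterol enzymes HMGCS1 and ACAT2 1.54-fold and 1.34-fold, and ACACA, acetyl-CoA carboxylase, 1.22-fold. FASN, fatty acid synthase, did not pass, at 37587 ± 1393 with CDO1 and 38479 ± 5344 in mock (SD, n = 3 each). Its fitted log2 fold change was -0.03 with the deposited scaling alone, but 0.13 and past the threshold with the GC trend removed.

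Of 13 transcription regulators fitted from 14, 2 rose, 1 fell and 10 did not pass, with a median log2 fold change of 0.10. The number that rose was 5 without mock replicate 2 and 6 with the GC trend removed. Over all genes, 2382 and 2896 rose in those fits, beside 2467 in the main fit. HNF4A, a nuclear receptor of gut and liver epithelium, rose 1.63-fold, and INSIG1, which retains the sterol sensor in the endoplasmic reticulum, rose 1.27-fold. MLXIPL, the carbohydrate-responsive factor ChREBP, fell 1.37-fold. The sterol regulatory factors known to drive ACLY, ACSS2 and SLC25A1 did not pass, SREBF1 at a log2 fold change of 0.03 ± 0.08 and SREBF2 at 0.13 ± 0.05 (SE, limma adjusted p = 0.823 and 0.0838). Both were past it with the GC trend removed, at 0.14 each, and SREBF2 also without mock replicate 2, at 0.17.

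**Figure D4:**
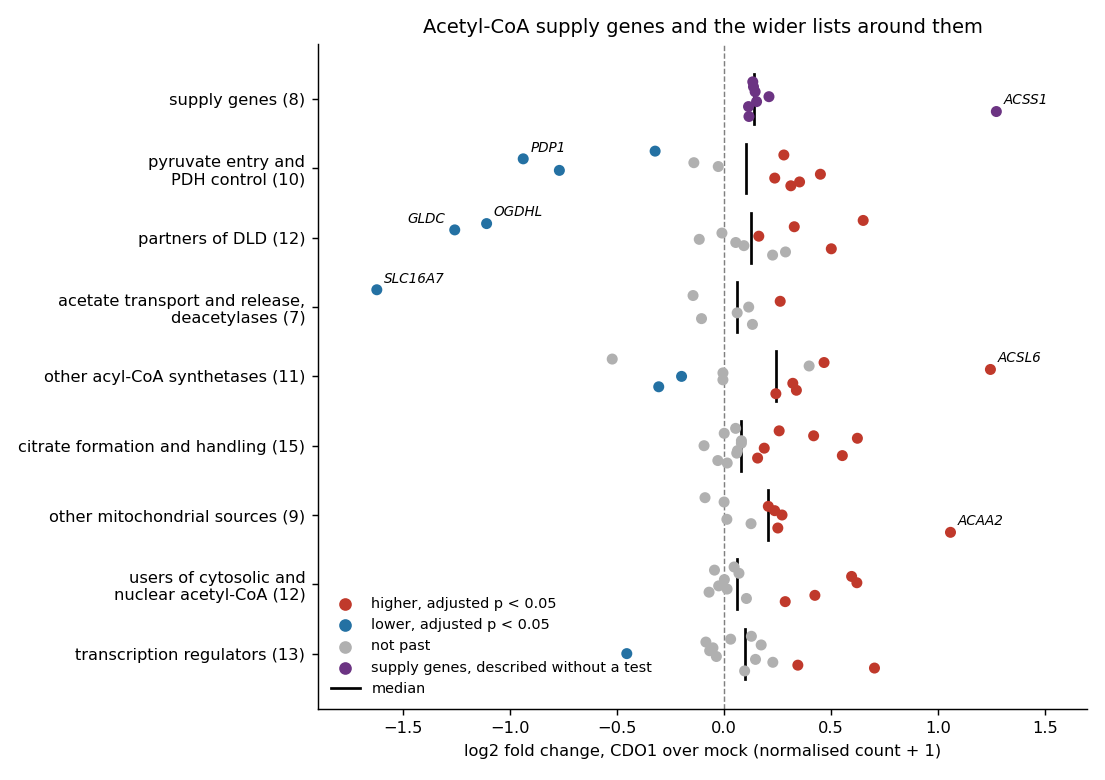
Log2 fold change (CDO1 over mock, normalised count plus 1) of the 8 supply genes fitted and of the genes fitted in each of 8 surrounding lists (number beside the name). Genes past the adjusted p of 0.05 are red where higher and blue where lower with CDO1, the rest of the lists are grey, the supply genes are purple, and bars are medians. ACSS1, ACSL6 and ACAA2 are the genes above 0.9 and PDP1, OGDHL, GLDC and SLC16A7 those below -0.9, while list medians lie between 0.06 and 0.24.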

How the data were processed

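The submitters' processing notes name STAR 2.5.1b, DESeq2 1.10.1 and GRCh38. How reads were counted, with which strand setting and annotation release, is not given in the sources used here. Signal columns hold gene counts divided by a size factor per library, as deposited and as the values show: 100% of them are whole multiples of the smallest step of their library, within 0.001 of a read. The log2 fold change, p-value and adjusted p-value columns are the authors' deposited comparison.

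The main fit was limma 3.58.1 (R 4.3.3, with a trend) on log2(normalised count + 1), over 21775 genes averaging 1 or more, with the group as sole term, Benjamini-Hochberg adjustment over all genes and a threshold of 0.05. Its SEs and intervals use variances moderated toward a trend over all genes, so they do not rest on a gene's own libraries alone. On the log2 scale ACSS1 had an SE of 0.11 at a within-group SD of 0.17. PDHA1 had an SE of 0.05 at a within-group SD of 0.02, so its SE exceeded the SD of its own libraries. Fold values are ratios of mean normalised counts. Fits of the recovered reads in edgeR 4.0.16 (5423 genes called) and DESeq2 1.42.0 (4296 called), other filters, pseudocounts and scalings, removal of a lowess trend with GC content (span 0.3), a replicate block and each library left out were alternatives. On simulated data for CDO1 against mock of 21180 genes, limma called 93% of the 100 genes set to change 1.5-fold and 100% of the 100 set to change 2-fold. Of its calls, 3.0% were false. The genes set to change were drawn from the better-expressed ones only, with dispersions taken from a trend. No other genes were changed, whereas 5229 were called in the real data, and no GC trend or replicate structure was simulated. The false share of the real calls was therefore not measured. Smaller changes, such as those of the supply genes other than ACSS1, were not simulated.

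Within a group, libraries differed beyond sampling noise (chi-square per degree of freedom 2.10 to 8.29), so none was merged. Symbols came from a name table (26577 of 27134 identifiers), and positions, exon lengths and GC content from GENCODE 29 (26742), whose release may differ from the authors'. The genes and lists were chosen with earlier results of these data known. Beside the 9 genes, those named are up to 4 per list with the smallest p past the threshold, the 5 most like ACSS1, genes whose lack of a call is stated, and a few named after their values were seen (MPC1, MPC2, PDP2, PDHX, CS and genes beside ACSS1).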

Additional observations from a re-analysis of the deposited data

How the results depend on the processing

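The log2 fold change of ACSS1 ran between 1.199 and 1.41 over the 17 alternative fits, which is also its range with 1 library left out. All 8 fitted supply genes kept a positive sign in each of the 17. The removal of each library's GC trend, with or without the block, moved SLC25A1 to 0.32, PDHA1 to 0.10 and DLD to 0.15, and equal library totals moved PDHA1 to 0.12; the cause was not tested. Leaving out 1 library gave 2 to 4 supply genes past the threshold, 34 to 42 of the 89 wider genes and 3887 to 5447 of all genes. PDHA1 lost its call without CDO1 replicate 1, 2 or 3 or mock replicate 1, DLAT gained one without CDO1 replicate 2 or mock replicate 3, and SLC25A1 gained one without mock replicate 2. An adjusted p of 0.01 left 3452 genes. The labels do not say whether libraries with the same number were paired. The correlations of their deviations from the group means were 0.0777, 0.299 and 0.0862, beside -0.238 to 0.189 between libraries with different numbers. Not every library correlated best with its own number, and these values do not settle whether there was pairing. With the replicate number as a block, 6 supply genes passed, ACLY, SLC25A1 and DLAT added, and 5 with the block and the GC trend removed. Over all 21775 genes these fits called 5918 and 6496, beside 5229 in the main fit. With the block alone SREBF2 also passed, 4 regulators rose and 2 transport genes fell. The read counts of ACSS3 limit any statement on it.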
